A study of Mus musculus with 6 samples.

Results

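Antiviral interferon-stimulated genes were examined in RNA-seq libraries of H22 tumours. They were chosen by gene symbol from a list of 41 such genes that leaves out most interferon-induced GTPases, antigen presentation genes and interferon regulatory factors. Of the 41 symbols, 39 are in the table of 21720 gene symbols that the authors deposited, and Mx1 and Mx2 were not analysed here. After a filter on low counts 38 of the 39 genes were tested among 14963 genes. Oas1a did not pass, with 3, 0 and 0 counts in the control group against 0, 6 and 0 in the luteolin group. H22 is a mouse hepatocellular carcinoma cell line, and the tumours grew under the skin of female wild-type BALB/c mice that were 6 to 8 weeks old per the study's methods. The luteolin group received 200 mg/kg of luteolin, a plant flavonoid, and the control group received 0.5% carboxymethyl cellulose sodium, each by gavage in 0.2 mL once a day for 21 days from a tumour volume of about 50 mm3. Each group gave 3 libraries, and every tumour came from the same cell line in a subcutaneous site, which is not the liver. The sources used here do not say whether the 3 libraries of a group came from separate animals, so the p values below measure only the spread between these libraries.

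Type I interferons, IFN-α and IFN-β, bind a receptor made of IFNAR1 and IFNAR2. Through the kinases JAK1 and TYK2 this leads to the complex ISGF3, which holds STAT2 and IRF9 and binds the interferon-stimulated response element (ISRE) in the promoters of antiviral genes. IFN-γ, which T cells and natural killer cells release, acts at another element (GAS) and also raises many of these genes. The name of the list therefore does not say which interferon acted, if any did.

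The promoters of the members are shown first, because the ISRE is what the type I pathway is known to read. RefSeq promoter windows on GRCm38.p6, each from 250 bases before to 50 after a start site, were matched by symbol for 29 of the 39 genes. Windows were searched on both strands for GAAANNGAAA, the core of the ISRE, which reads TTTCNNTTTC on the other strand. Overlapping matches were counted separately. The motif was found for 14 of the 29 genes (48.3%), against 1079 of 27025 genes (3.99%) over all RefSeq promoters. The GAS core TTCNNNGAA, searched separately, was found for 6 of the 29 (20.7%) against 9.55% of all genes. With a site shared by 2 windows of a gene counted once, there were 23 matches to the ISRE core, and 19 of them began before a start site. The windows of Oasl2, Cmpk2 and Ifi47 held no match to the ISRE core, and Zbp1 had no window. The stretches below give the 200 bases before the start site for 7 of the members with the motif there. They read 5′ to 3′ along the strand of the gene. Capitals mark GAAANNGAAA or TTTCNNTTTC.
Isg15 (chr4:156200819-156201018, minus strand): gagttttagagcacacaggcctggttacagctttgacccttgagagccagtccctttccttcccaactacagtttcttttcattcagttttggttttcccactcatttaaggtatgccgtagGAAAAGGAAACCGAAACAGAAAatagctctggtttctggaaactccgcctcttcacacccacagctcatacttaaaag
Ifit1 (chr19:34640689-34640888, plus strand): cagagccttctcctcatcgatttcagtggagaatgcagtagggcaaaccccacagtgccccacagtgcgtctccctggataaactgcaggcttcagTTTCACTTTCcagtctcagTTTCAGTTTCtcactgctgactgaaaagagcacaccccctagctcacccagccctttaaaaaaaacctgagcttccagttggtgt
Ifit3 (chr19:34583329-34583528, plus strand): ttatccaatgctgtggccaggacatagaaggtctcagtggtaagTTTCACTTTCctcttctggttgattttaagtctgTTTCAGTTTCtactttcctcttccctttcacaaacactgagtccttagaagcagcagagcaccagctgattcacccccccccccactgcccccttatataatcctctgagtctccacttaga
Ifit3b (chr19:34607757-34607956, plus strand): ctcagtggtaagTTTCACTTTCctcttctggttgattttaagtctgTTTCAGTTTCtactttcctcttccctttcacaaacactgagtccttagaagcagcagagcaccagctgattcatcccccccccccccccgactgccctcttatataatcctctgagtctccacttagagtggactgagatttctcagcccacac
Rsad2 (chr12:26456453-26456652, minus strand): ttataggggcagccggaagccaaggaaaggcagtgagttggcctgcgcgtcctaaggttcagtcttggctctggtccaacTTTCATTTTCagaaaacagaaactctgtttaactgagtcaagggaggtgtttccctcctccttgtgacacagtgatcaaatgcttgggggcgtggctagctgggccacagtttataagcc
Slfn5 (chr11:82951902-82952101, plus strand): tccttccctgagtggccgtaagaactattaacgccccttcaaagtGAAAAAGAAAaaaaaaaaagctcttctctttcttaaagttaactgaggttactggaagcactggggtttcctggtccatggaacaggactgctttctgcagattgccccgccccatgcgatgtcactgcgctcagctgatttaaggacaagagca
Bst2 (chr8:71537473-71537672, minus strand): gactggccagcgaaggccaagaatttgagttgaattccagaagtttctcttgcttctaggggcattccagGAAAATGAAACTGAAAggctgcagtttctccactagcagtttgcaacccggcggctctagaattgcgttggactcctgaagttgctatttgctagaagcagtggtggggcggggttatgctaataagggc
The matches in Isg15 began 78, 72 and 66 bases before the start and overlap, and those in Bst2 began 130 and 124 bases before it and overlap. Ifit3 and Ifit3b carry the same pair of motifs with the same spacing. The coordinates belong to the RefSeq windows and not to the deposited table, which gives no positions, and a match is a description of the letters, not evidence of binding.

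Antiviral genes were mostly higher in the luteolin group. The study used DESeq2 and counted genes with a p under 0.05 before adjustment and more than a 2-fold change. The same cutoffs were applied here to the edgeR quasi-likelihood test. At that threshold, 15 of the 38 tested members (39.5%) were higher and 0 were lower. The background over all tested genes was 11.3% higher and 1.52% lower, and the same shares are the background for the counts by role and by gene list below. The 15 genes were Ifit3, Ifit3b, Oas2, Oas3, Oasl2, Isg15, Ifih1, Zbp1, Ifi205, Rsad2, Cmpk2, Slfn5, Ifi27, Ifi47 and Rtp4. The log2 fold change lay above 0 for 35 of 38 members, against 49.3% of all tested genes, and its median was 0.92 with a range from -0.59 to 2.22, against a median of -0.01 over all tested genes. Of the members, 26 lay above every control library in each luteolin library (background 15.9%) and 3 lay below every control library (background 12.8%). In tumour RNA, more cells of a type and more RNA per cell cannot be told apart.

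After Benjamini-Hochberg adjustment over all tested genes, 2 members rose at an adjusted p under 0.05 in the edgeR quasi-likelihood test, Zbp1 and Oasl2 (background 1.34%). None of the 38 fell (background 0.187%), and 0 were lower at an unadjusted p under 0.05 (background 6.44%), against 24 higher (background 14%). Among the other tools, DESeq2, which the study used in another version, called 17 members higher (background 8.67%) and 0 lower (background 2.33%) at an adjusted p under 0.05. limma's voom with sample quality weights called 24 higher (background 12.6%) and 1 lower, Isg20 (background 8.76%). Leaving out 1 library changed the edgeR count at an adjusted p under 0.05. It was 0 without control replicate 1, 2 or 3 or luteolin replicate 1, where the background was 0% as well. It was 1 without luteolin replicate 3 (Zbp1, background 0.993%) and 2 without luteolin replicate 2 (Zbp1 and Ifi47, background 1.82%).

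**Figure D1:**
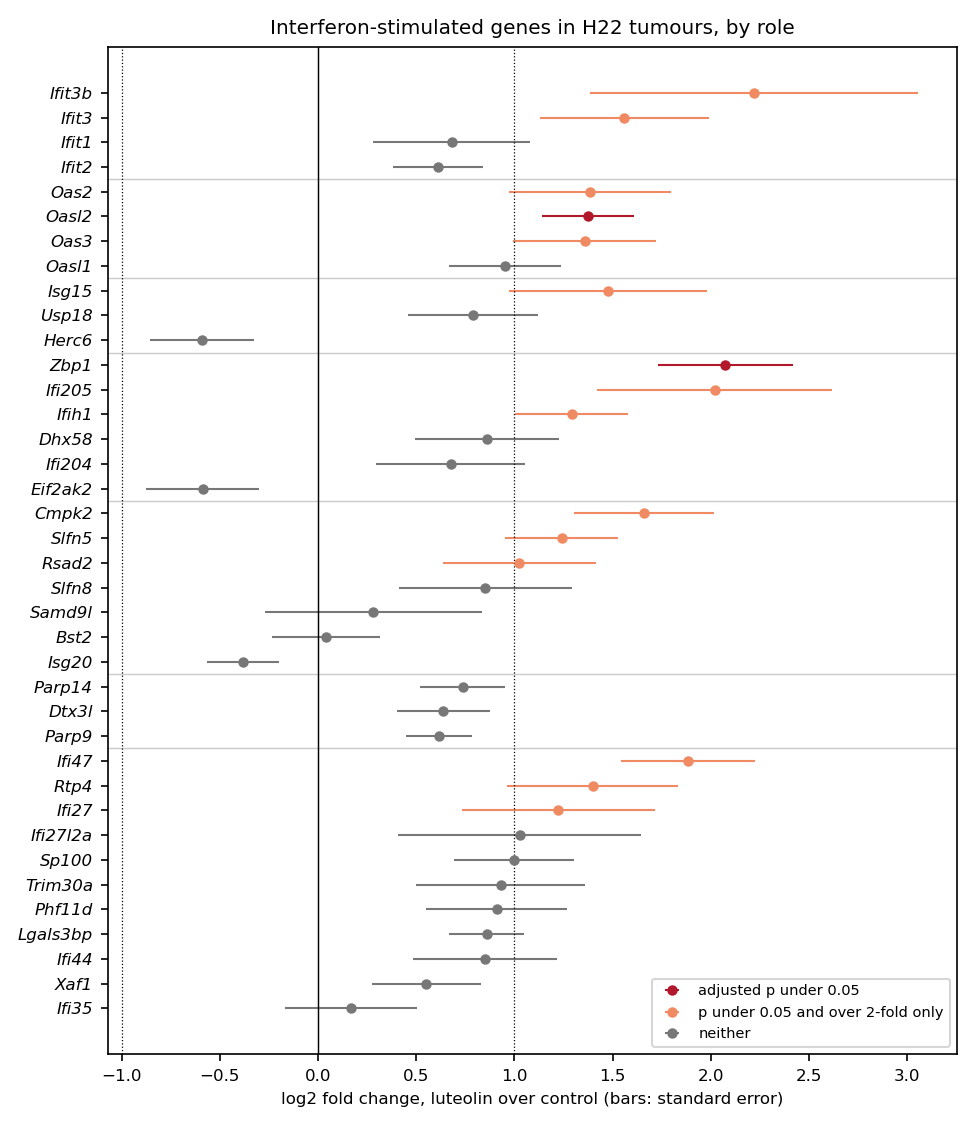
Log2 fold change of the 38 tested members, luteolin over control (x axis, bars are the standard error), with 1 member per line of the y axis, grouped by role. Dotted lines mark a fold change of 2 in either direction, and Zbp1 and Oasl2 are the members with an adjusted p under 0.05. Most points lie right of 0, and Herc6, Eif2ak2 and Isg20 lie left of it.

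Totals of the deposited counts ranged from 61081637 to 80442954 per library. The labels give hepatocellular carcinoma as the cell type, and genes of the hepatocyte and hepatoma list were unequal in level. Hnf4a had at most 20 counts in any library and Ttr at most 24. Afp had 43.4 to 66.7 CPM (counts scaled to a common library total after normalization) in the control group against 32.7 to 41.8 CPM in the luteolin group. Each luteolin library lay below each control for Afp (log2 fold change -0.58, edgeR adjusted p = 0.187). Alb lay between 0.868 and 133 CPM, and its groups overlapped. Krt18, a keratin of simple epithelia, was the most abundant by CPM at 193 to 266, and the list summed to 272 to 386 CPM in the controls and 267 to 418 CPM in the luteolin group. None of its 8 tested genes was higher or lower at the study's threshold (background 11.3% and 1.52%). Luteolin replicate 2 stood apart from the other libraries, with 16767 genes above 0 counts against 15579 to 16012 in the other 5 libraries. That library also had the highest total, 80442954, and the part of depth in the number of genes was not tested. It also had a summed level of 11 skin keratinocyte genes of 9383 CPM against 16.1 to 386 in the other luteolin libraries and 3.74 to 4.54 in the controls.

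The IFIT proteins bind viral RNA and hold back its translation. Of the 4 family genes, 2 were higher at the study's threshold, and 3 lay above every control library in each luteolin library. Ifit3 had 2.90, 3.44 and 3.52 CPM for control replicates 1, 2 and 3, and luteolin replicates 1, 2 and 3 had 6.78, 15.9 and 6.43 CPM. The groups did not overlap, and luteolin replicate 2 was by far the highest. Its log2 fold change was 1.56 (SE, the standard error, 0.43, adjusted p = 0.120 by the edgeR quasi-likelihood test, Benjamini-Hochberg method). Ifit3b, a close copy, had 0.286, 0.494 and 1.61 CPM in the control group against 2.55, 6.86 and 1.75 in the luteolin group. This was the largest log2 fold change of the members, 2.22 (SE 0.84, edgeR adjusted p = 0.202), and the lowest luteolin library lay just above the highest control. It was 1.45 without luteolin replicate 2, below Ifi205, Ifi47, Zbp1 (1.70) and Cmpk2 (1.68) in the same setting, and 3.24 without control replicate 3. Reads of this pair may have been split between them, since 41.1% of the 75-base words of Ifit3 transcripts occur in Ifit3b as well. Ifit2, which shares no such word with another gene, had 8.86, 11.4 and 13.1 CPM against 17.1, 16 and 17.9. The 3 luteolin values lay close together and above the controls, 17 ± 0.947 against 11.1 ± 2.16 CPM (SD, n = 3 each). The log2 fold change was 0.61 (SE 0.23, edgeR adjusted p = 0.200). Ifit1 had a log2 fold change of 0.68 and its groups overlapped, and its promoter holds the ISRE core at 104 and at 85 bases before the start.

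The OAS enzymes make 2-5A, the messenger that activates RNase L, and the OAS-like proteins are their relatives. All 4 tested genes of the family lay above every control library in each luteolin library, and 3 were higher at the study's threshold. Oasl2 had 12.9, 17.5 and 22.1 CPM in the control group against 45.2, 49.7 and 41.1 CPM in the luteolin group. The luteolin libraries were alike and the groups were well apart. It rose by 1.37 on the log2 scale (SE 0.23, adjusted p = 0.0469 by the edgeR quasi-likelihood test, Benjamini-Hochberg method), a fold change of 2.59. Oas2 (log2 fold change 1.38), Oas3 (1.36) and Oasl1 (0.95) had their highest value in luteolin replicate 2. In Oas2, a neighbour of Oas3 on chromosome 5, the luteolin libraries spread from 21.2 to 63.9 CPM, and without luteolin replicate 2 both genes fell short of a fold change of 2, with log2 values of 0.82 and 0.97.

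Isg15 encodes a ubiquitin-like protein that is attached to other proteins, a step to which HERC6 belongs in the mouse, and USP18 removes it. Isg15 had 3.75, 5.19 and 3.44 CPM in the control group against 10.8, 18.8 and 4.85 CPM in the luteolin group. Luteolin replicate 3 lay below control replicate 2, so the groups overlapped. The log2 fold change was 1.48 (SE 0.51, edgeR adjusted p = 0.176), and 0.94 without luteolin replicate 2. Herc6 had 23.7, 27.5 and 39.5 CPM in the control group against 22.3, 15.4 and 22.5 CPM. It lay lower in every luteolin library, though the closest values, 23.7 and 22.5 CPM, differed little, with a log2 fold change of -0.59 (SE 0.27, edgeR adjusted p = 0.269). Usp18 had a log2 fold change of 0.79. The remaining conjugation genes outside the list of members were not at the study's threshold, and Ube2l6, the conjugating enzyme, had the smallest p of them, with 11.1, 10.6 and 10.7 CPM in the control group against 14.0, 29.6 and 13.9 in the luteolin group. The luteolin libraries lay above the controls, with luteolin replicate 2 the highest (log2 fold change 0.83, edgeR adjusted p = 0.234).

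Cytosolic sensors of foreign nucleic acid held the member with the smallest p. Zbp1, which senses Z-form nucleic acid and can start necroptosis, had 8.06, 12.9 and 10.7 CPM in the control group against 35.2, 65.7 and 32.0 CPM in the luteolin group. The lowest luteolin library lay well above the highest control. It rose by 2.07 on the log2 scale (SE 0.34, adjusted p = 0.0437 by the edgeR quasi-likelihood test, Benjamini-Hochberg method), a fold change of 4.21, and by 1.70 without luteolin replicate 2. Ifi205, of the HIN-200 family of DNA-binding proteins, had 1.10, 3.18 and 4.67 CPM against 17, 12.7 and 6.60 CPM. Its groups did not overlap and luteolin replicate 1 was the highest, with a log2 fold change of 2.02 (SE 0.60, edgeR adjusted p = 0.138). The RNA sensor gene Ifih1 (MDA5) had a log2 fold change of 1.29, Dhx58 (LGP2) of 0.86 and Ifi204 of 0.68, the last in a family of similar genes. Eif2ak2 encodes PKR, the kinase that stops translation on double-stranded RNA, and it had 66.6, 70.0 and 109 CPM in the control group against 60.9, 37.1 and 65.5 CPM in the luteolin group. Each luteolin library lay below each control, though the closest values differed little, with a log2 fold change of -0.59 (SE 0.29, edgeR adjusted p = 0.310). Of the 6 sensor genes, 3 were higher at the study's threshold.

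**Figure D2:**
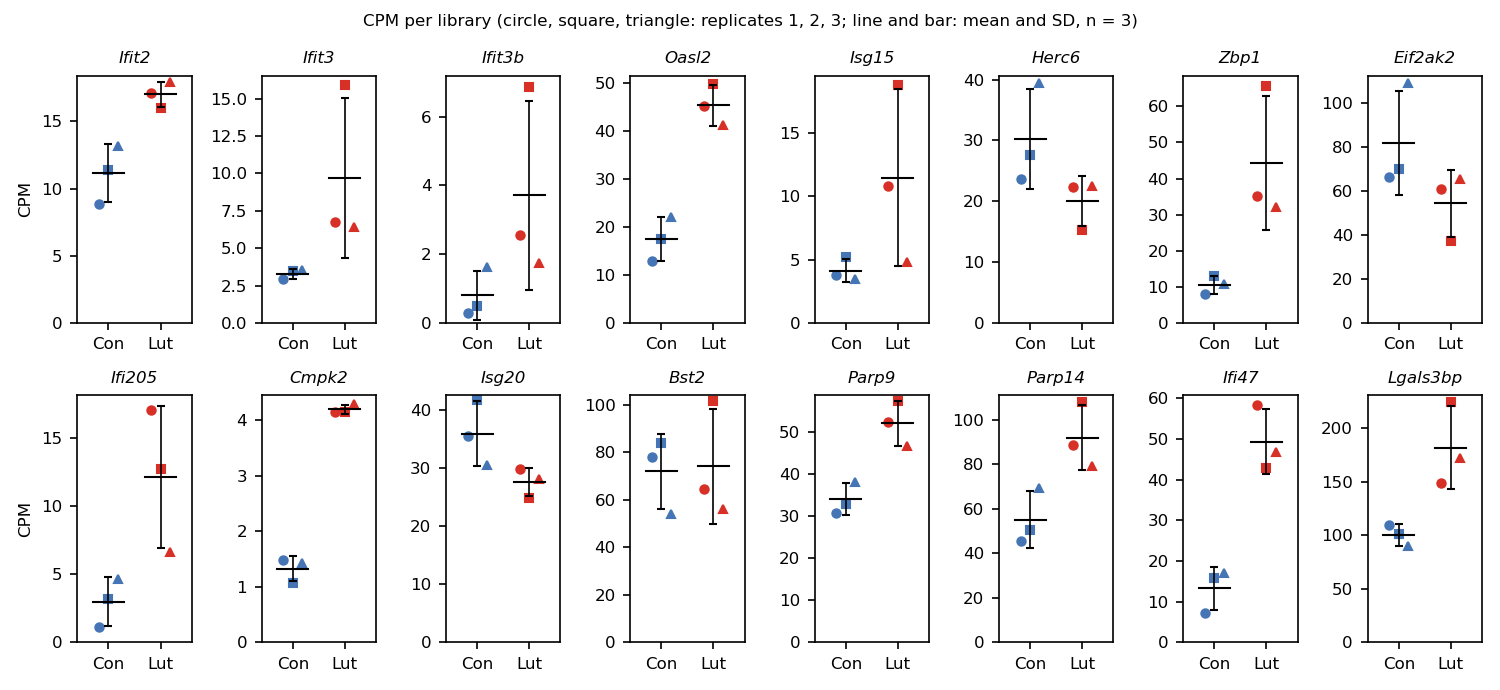
CPM (y axis, starting at 0) of 16 members in each library of the control group (Con, blue) and the luteolin group (Lut, red), 1 panel per gene. Circles, squares and triangles are replicates 1, 2 and 3, and lines with bars are the mean and SD (n = 3). The groups are well apart for Oasl2, Zbp1, Cmpk2 and Ifi47, while they overlap for Isg15 and Bst2.

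Among the inhibitors of viral replication and release, 3 of 7 were higher at the study's threshold. Cmpk2, a mitochondrial nucleotide kinase, had 1.49, 1.07 and 1.43 CPM in the control group against 4.15, 4.14 and 4.29 CPM in the luteolin group. The 3 luteolin values were nearly equal and the groups were far apart. The log2 fold change was 1.66 (SE 0.36), short of significance after correction (edgeR adjusted p = 0.0756). Rsad2, which encodes viperin and lies next to Cmpk2 on chromosome 12, had a log2 fold change of 1.02, and its 3 luteolin libraries spread from 5.46 to 12.5 CPM. Slfn5 had 1.24, with 51.6 to 80.7 CPM in the luteolin group against 21.2 to 39.4 CPM in the control group. Slfn8 and Samd9l, at 0.85 and 0.28, varied in the control group, where the highest library was 3.44 and 5.20 times the lowest. Samd9l had the other sign without control replicate 1 (-0.14) and was 1.09 without control replicate 3.

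The other 2 genes of this role did not follow. Isg20, an exonuclease that degrades RNA, had 35.5, 41.7 and 30.6 CPM in the control group against 29.8, 24.9 and 28.1 CPM in the luteolin group. Each luteolin library lay below each control, with a log2 fold change of -0.38 (SE 0.18, edgeR adjusted p = 0.303). Bst2, or tetherin, holds budding virus at the cell surface. It had 78.1, 83.8 and 54.1 CPM against 64.7, 102 and 56.0 CPM, so the groups overlapped throughout. Its log2 fold change was 0.04 (SE 0.28, edgeR adjusted p = 0.955), and its promoter holds 2 overlapping copies of the ISRE core. Per kilobase of the longest GENCODE M21 transcript, Bst2 was the most abundant member, at 90.9 CPM per kb in the control group against 93.6 in the luteolin group. In the order of the control levels Lgals3bp followed with 43.0 and 77.9 CPM per kb, Ifi27l2a with 33.6 and 68.3, Isg20 with 33.0 and 25.4 and Eif2ak2 with 19.0 and 12.6. Ifit3b and Cmpk2 were among the scarcest, at 0.40 and 0.41 CPM per kb in the control group.

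Parp9, Parp14 and Dtx3l encode ADP-ribosyltransferases and a ubiquitin ligase that PARP9 binds, and they are neighbours on chromosome 16. All 3 were higher at an unadjusted p under 0.05 and lay above every control library in each luteolin library, and 0 exceeded a fold change of 2. Parp9 had 30.8, 32.8 and 38.2 CPM in the control group against 52.2, 57.2 and 46.6 CPM in the luteolin group. The spread within each group was small, 33.9 ± 3.8 against 52.0 ± 5.34 CPM (SD, n = 3 each), and the log2 fold change was 0.62 (SE 0.17, edgeR adjusted p = 0.114). Parp14 had 45.5, 50.5 and 69.5 CPM against 88.5, 108 and 79.3 CPM. These groups did not overlap either, and the log2 fold change was 0.74 (SE 0.21, edgeR adjusted p = 0.133). Dtx3l had a log2 fold change of 0.64. Parp9 and Dtx3l share 8.43% and 7.26% of their 75-base words, mainly with each other.

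Of the other 11 interferon-induced genes, 3 were higher at the study's threshold and 8 lay above every control library. Ifi47, an interferon-inducible GTPase, had 7.30, 15.8 and 17 CPM in the control group against 58.3, 42.9 and 46.7 CPM in the luteolin group. Every luteolin library was far above the controls and luteolin replicate 2 was the lowest of them. The log2 fold change was 1.88 (SE 0.34), just short of significance after correction (edgeR adjusted p = 0.0531). Lgals3bp, a secreted glycoprotein that binds galectins, had 110, 101 and 89.9 CPM against 148, 224 and 172 CPM. Its groups did not overlap, at 182 ± 38.7 against 100 ± 9.92 CPM (SD, n = 3 each), with a log2 fold change of 0.86 (SE 0.19, edgeR adjusted p = 0.0815). Rtp4 had a log2 fold change of 1.40, Sp100 of 1.00, Trim30a of 0.93, Phf11d of 0.91, Ifi44 of 0.85, Xaf1 of 0.55 and Ifi35 of 0.17. The sign for Ifi35 was the other one without luteolin replicate 2 (-0.27), with an offset for GC content (-0.24) and in voom (-0.18). The neighbours Ifi27 and Ifi27l2a, which lie next to each other on chromosome 12, moved most of all members when luteolin replicate 2 was left out. Ifi27l2a had 64.7 CPM in luteolin replicate 2, while its other luteolin values, 18.8 and 11.4 CPM, lay around the controls of 16.5, 18.4 and 11.7 CPM. Without that library its log2 fold change went from 1.03 to -0.03, and that of Ifi27 from 1.22 to 0.42.

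Luteolin replicate 2 had the highest value of all libraries for 25 of the 38 members (65.8%), against 34.0% of all tested genes. The median log2 ratio of the members to the mean of the controls was 0.85, 1.20 and 0.62 for luteolin replicates 1, 2 and 3. For the controls it was -0.31, -0.04 and 0.27 in the same order. Over all tested genes it stayed between -0.04 and 0.03. The controls were therefore not level for these genes, and control replicate 3 lay nearest to the luteolin group. Without luteolin replicate 2, 11 members were higher at the study's threshold, of which 10 were among the 15, with a background of 7.52%. Ifi27, Ifit3b, Isg15, Oas2 and Oas3 no longer passed and Trim30a did, 26 of the 38 log2 fold changes were smaller, and 32 were still above 0. Over the 15 alternatives run, 9 genes passed the study's threshold every time: Cmpk2, Ifi205, Ifi47, Ifih1, Ifit3, Oasl2, Rtp4, Slfn5 and Zbp1. The other 6 were lost in at least 1 of them, Ifi27 and Rsad2 most often, with 8 and 9 of 15 passed.

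**Figure D3:**
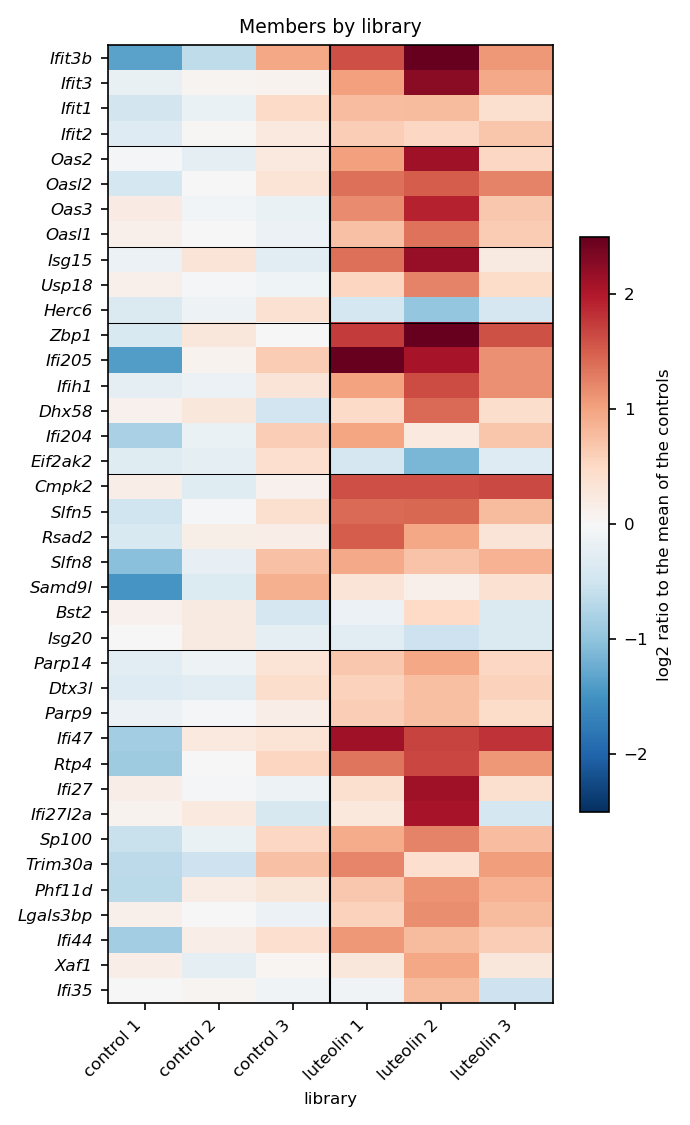
Log2 ratio of CPM to the mean of the 3 controls (colour, with a pseudocount of 0.05 CPM; the scale ends at 2.5 in either direction) for the 38 tested members (y axis, by role) in each library (x axis). Luteolin replicate 2 has the strongest colour for most members, and Herc6, Eif2ak2 and Isg20 are pale or blue in all 3 luteolin libraries.

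**Figure D4:**
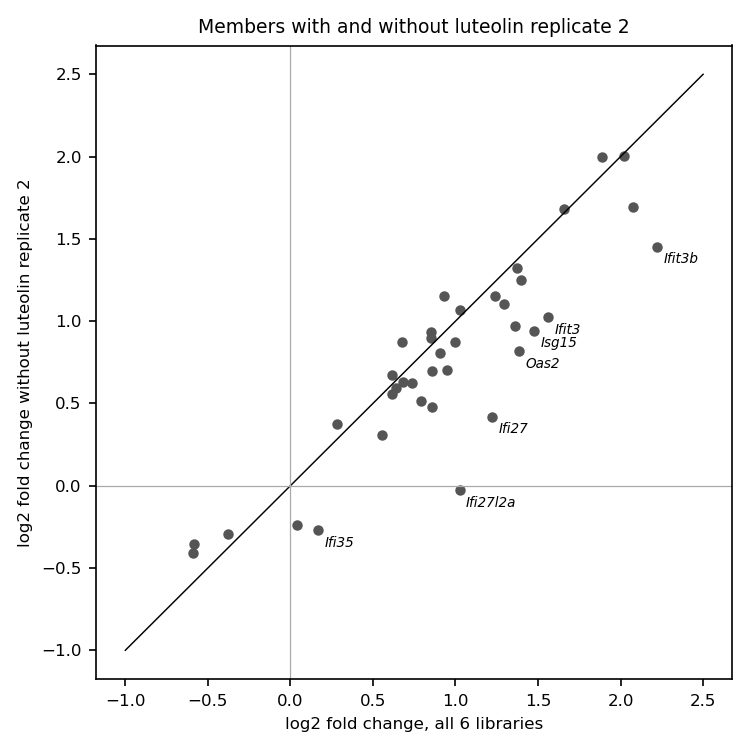
Log2 fold change of each tested member with all 6 libraries (x axis) and without luteolin replicate 2 (y axis), each point 1 member and the line marking equality. Of the 38 points, 7 lie more than 0.4 below the line, among them Ifi27 and Ifi27l2a, and 0 lie more than 0.4 above it.

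Base composition moved with the libraries. The members were split at their median GC content of 47.5%, 19 on each side. The lower-GC members had median log2 ratios to the control mean of -0.56, -0.15 and 0.41 in the controls and 0.95, 0.96 and 0.70 in the luteolin group, by replicate number. The higher-GC members had 0.02, 0.01 and -0.10 in the controls and 0.62, 1.5 and 0.57 in the luteolin group. On both sides each luteolin library exceeded each control. Tested genes of the same lower GC range had -0.37, -0.02 and 0.30 in the controls and -0.03, -0.53 and 0.05 in the luteolin group. With an offset for GC content in the edgeR fit, the median log2 fold change was 0.77 for the members and -0.24 for all tested genes, and 12 members were higher at the study's threshold (background 9.44%). Of these 12, all were among the 15, and Ifi27, Oas3 and Rsad2 were lost.

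The ISRE core and the size of the change were set side by side. Of the tested members, 13 held the motif in a promoter window, and 8 of them were higher at the study's threshold, with a median log2 fold change of 1.24 and a range from -0.59 to 2.22. Another 15 had a window without it, of which 3 were higher, with a median of 0.85. The remaining 10 had no window, and 4 of them were higher, with a median of 0.94. No test was made, and absence of these letters says nothing of the factor.

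Genes of the pathway outside the members were looked at next, 64 in the table and 44 tested. Of these, 13 were higher and 0 lower at the study's threshold (background 11.3% and 1.52%), with a median log2 fold change of 0.48. Transcripts of the type I interferons themselves were hardly detected. Of 18 genes, 14 had 0 counts in every library, and 0 passed the filter. Where nothing was counted, as many as 3 counts would remain possible by counting error alone if 1 count were 1 read pair. Low values favour multiples of 4, so a count need not be 1 read pair and the limit may be higher. Ifna16 had 0, 5 and 0 counts in the control group against 0, 4 and 0 in the luteolin group, and Ifnab had 0, 0 and 4 in each. Ifne had 3, 0 and 0 counts against 5, 0 and 0, and Ifnz had 5, 4 and 2 against 4, 2 and 1. At this depth no difference in type I ligands was detectable.

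Ifng was measured in every library, with 11, 40 and 13 counts in the control group against 292, 249 and 161 in the luteolin group. The lowest luteolin count was several times the highest control count, with a log2 fold change of 3.39 (SE 0.68), short of significance after correction (edgeR adjusted p = 0.0665). Of 8 genes listed as targets of IFN-γ, 6 were higher at the study's threshold (background 11.3%): Ciita, Cxcl9, Ido1, Ubd, Nos2 and Socs1. Gbp2 (log2 fold change 0.66) and Irf1 (0.27) were not, and the groups overlapped for Irf1. Whether an interferon acted on these genes, and which one, was not tested. Nos2, the inducible nitric oxide synthase, rose by 3.68 on the log2 scale (SE 0.43, adjusted p = 0.0331 by the edgeR quasi-likelihood test, Benjamini-Hochberg method). It had 5.27, 14.3 and 9.01 CPM in the control group against 150, 81.4 and 134 CPM in the luteolin group. Luteolin replicate 2 was the lowest of the luteolin libraries for this gene.

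Neither receptor gene of type I interferon passed the test. Ifnar1 had 121, 109 and 120 CPM in the control group against 112, 120 and 113 CPM in the luteolin group, with a log2 fold change of -0.02 (edgeR adjusted p = 0.947). Ifnar2 had 35.6, 38.1 and 38.8 CPM against 47.1, 56.6 and 39.0 CPM, with a log2 fold change of 0.34 (edgeR adjusted p = 0.349). Of the 6 receptor genes 1 was higher at the study's threshold (background 11.3%). This was Ifnlr1, a chain of the type III interferon receptor that epithelial cells carry. It had 15, 8 and 0 counts in the control group against 84, 1013 and 119 counts in the luteolin group (log2 fold change 5.47, edgeR adjusted p = 0.108). Luteolin replicate 2, where the keratinocyte genes were highest, held most of these counts, and the part of skin cells in this value was not tested.

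Among the genes of receptor signalling, Jak1 was higher at the study's threshold, with 43.4, 47.0 and 60.6 CPM in the control group against 89.5, 149 and 84.4 CPM in the luteolin group. Its groups did not overlap, and its log2 fold change was 1.10 (SE 0.26, edgeR adjusted p = 0.0957). Stat2 had 40.6, 43.5 and 41.7 CPM against 59.3, 100 and 62.2 CPM, with a log2 fold change of 0.82 (edgeR adjusted p = 0.125). Irf9 did not separate, with 36.6, 23.2 and 30.3 CPM against 24.3, 56.0 and 24.8 CPM, a log2 fold change of 0.22 (edgeR adjusted p = 0.795). For Irf9 only luteolin replicate 2 lay above every control.

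Sensors and adaptors upstream of interferon held 2 of 14 genes at the study's threshold, Tlr9 and Irf7, a share near the background of 11.3%. Irf7, the factor that amplifies IFN-α transcription, had 14.7, 14.9 and 13.2 CPM in the control group against 33.4, 78.6 and 23.9 CPM in the luteolin group. All 3 luteolin libraries lay above the controls, with a log2 fold change of 1.67 (SE 0.44, edgeR adjusted p = 0.108). Of 9 feedback genes 2 were higher (background 11.3%), Socs1 and Socs3, which inhibit the receptor kinases. Socs3 had 50.9, 37.5 and 29.2 CPM against 127, 192 and 80.3 CPM, a log2 fold change of 1.76 (edgeR adjusted p = 0.0665), and its groups did not overlap.

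**Figure D5:**
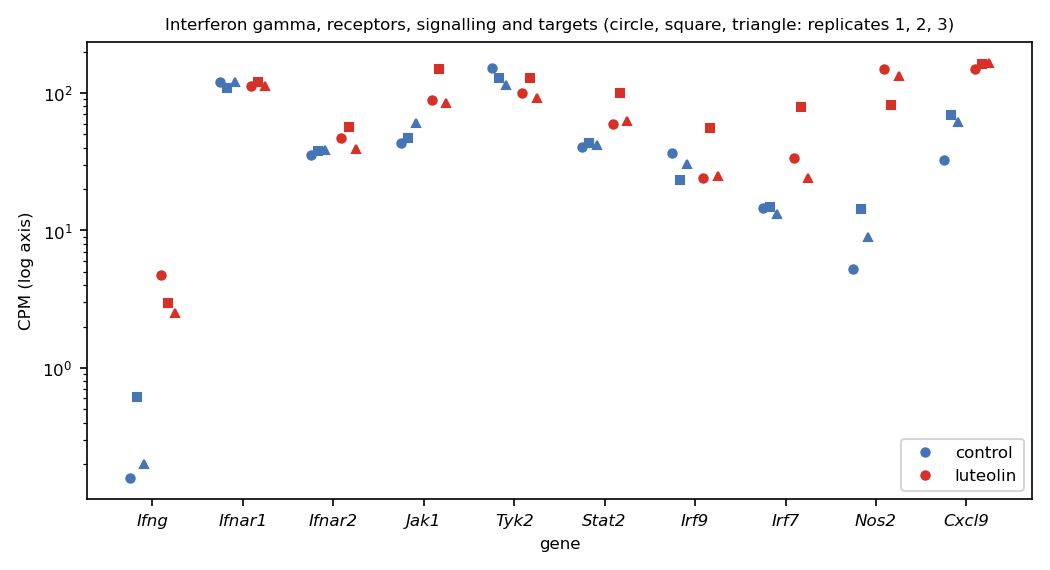
CPM (y axis, log scale) of interferon gamma, interferon receptor, signalling and target genes (x axis) in each library, with control libraries in blue and luteolin libraries in red. Circles, squares and triangles are replicates 1, 2 and 3. Ifng and Nos2 lie well apart between the groups, Ifnar1 lies level and Irf9 overlaps.

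Several lists of markers of other cell types also had higher sums in the luteolin group. Their levels were not compared with those of the members library by library. The T-cell list had a summed level of 11.7 to 13.9 CPM in the control group against 43.9 to 78.0 CPM in the luteolin group, and 8 of its 8 genes were higher at the study's threshold. Macrophage and monocyte genes summed to 993 to 1148 CPM against 1567 to 2315 CPM, with 3 of 10 genes higher. Neutrophil genes summed to 18.5 to 22.2 CPM against 89.3 to 181 CPM, with 5 of 6 tested genes higher. The other, Retnlg, had 1.65 to 2.18 CPM against 1.86, 0.527 and 5.68 CPM. Ngp and Camp did not pass the filter and were at 0 in every control library. In luteolin replicates 1, 2 and 3, Ngp had 4, 0 and 544 counts and Camp had 0, 7 and 100. Plasmacytoid dendritic cells are known as strong producers of type I interferon, and their list summed to 62.2 to 68.8 CPM against 83.2 to 121 CPM, with 4 of 8 genes higher. Most of this sum came from Tcf4, at 28.5 to 32.9 against 37.1 to 47.8 CPM, and Runx2, at 27.1 to 28.4 against 31.5 to 32.8 CPM. Neither passed the study's threshold. Conventional dendritic cell genes summed to 118 to 130 CPM against 179 to 281 CPM, with 5 of 7 higher. Most of this sum came from Itgax, at 86.0 to 90.4 against 134 to 252 CPM. Zbtb46 had 26.9 to 36.3 against 21.4 to 27.7 CPM, with a log2 fold change of -0.33.

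Lists of other cells differed in where they were high. B-cell genes summed to 11.6 to 13.6 CPM in the control group against 14.3 to 39.1 CPM in the luteolin group, with 2 of 6 genes higher at the study's threshold. For natural killer cells 4 of 6 genes were higher, while the sum was 73.6 to 106 CPM against 52.8 to 72.4 CPM, most of it from Eomes, at 70.2 to 92.3 against 36.1 to 51.3 CPM. Endothelial genes summed to 86.1 to 107 CPM against 100 to 265 CPM, with 2 of 6 higher, and fibroblast genes to 1431 to 1607 CPM against 2075 to 5060 CPM, with 5 of 7 higher. The 8 tested genes of the keratinocyte list were higher, and 8 of its 11 genes were at 0 in every control library, Krt14 and Krt5 among them. Interferon-stimulated genes can be expressed by tumour cells and by these other cells, and the part of their numbers in the values of the members was not tested.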

How the data were processed

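RNA-seq was run on H22 tumours of the control and luteolin groups, 3 libraries each, grouped by their sample titles. The authors deposited 1 whole-number value per gene symbol and library, analysed here as estimated counts. Of the values from 1 to 40, 44.8% are multiples of 4 and 70.3% are multiples of 4 or 1 above. A count therefore need not be 1 read pair. The submitters' processing notes name bcl2fastq 2.0, HISAT2, StringTie and DESeq2 and the builds rn6 and mm39. The role of each was not given in the sources used here, so no position was given to a value of the table. All columns were used, and 0 were left out.

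The groups were compared with the quasi-likelihood test of edgeR 4.0.16 under R 4.3.3 (two-sided, TMM factors, filterByExpr, prior count 2 and no covariates), with Benjamini-Hochberg adjustment over 14963 genes. A gene was counted at the study's threshold where p was under 0.05 before adjustment and the log2 fold change was over 1 in either direction. Alternatives were DESeq2 1.42.0 (Wald test, no shrinkage), limma 3.58.1 (voom with sample quality weights), RLE and upper-quartile normalization, no filter, at least 10 counts in every library, values divided by 4, the replicate number as a block, a GC content offset (natural spline, 4 degrees of freedom) and leaving out 1 library at a time. The fits were tested on simulated data. Totals of 61081637 to 80442954 limit the precision for scarce genes, and an exact permutation test of 3 libraries against 3 cannot go below p = 0.1.

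The members and the lists of roles, pathway genes and cell type markers were chosen with earlier results of these data known. Values per library were given for the member with the smallest p and the one with the highest mean CPM in each role group, members with an adjusted p under 0.05, members with a log2 fold change below 0, and the 3 largest and 3 smallest changes. Of the pathway, they were given for ligands with any count, Ifng, Ifnar1, Ifnar2, Stat2, Irf9, Irf7 and the gene with the smallest p in each list. For 1 pathway gene no result is reported here. Other members were given by log2 fold change or range, and further genes were named after their values were seen. Transcript lengths, GC content and shared 75-base words came from GENCODE M21, in which 21053 of 21720 symbols were found, and promoters from RefSeq.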

Additional observations from a re-analysis of the deposited data

How the results depend on the processing

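The median log2 fold change of the members kept its direction in every alternative, from 0.77 to 0.97, and from 0.81 to 1.11 with 1 library left out at a time. The count of members higher at the study's threshold was 12 to 17, where the share over all tested genes was 8.64% to 11.8%. With a library left out the count was 11 to 19, and the share over all tested genes was 7.52% to 13.6%. The count at an adjusted p under 0.05 depended on the setting. It was 2 in edgeR as reported, 17 in DESeq2, 24 in limma's voom, 6 with the GC content offset (3.63% of all tested genes), 4 with at least 10 counts in every library (2.54%), 3 with upper-quartile normalization (1.5%) or values divided by 4 (2.41%), and 0 to 2 with each library left out. The count lower at that threshold was 1 in voom and 0 in the others. The cause of these differences was not tested.

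With the replicate number as a block, 0 members were higher at an adjusted p under 0.05 (0.227% of all tested genes), 22 at an unadjusted p under 0.05 (10.7%) and 15 at the study's threshold (8.64%), and the adjusted p values of Zbp1 and Oasl2 were 0.0641 and 0.103. The numbers were not taken to pair the libraries, since same-numbered libraries had correlations of their deviations from the group means of -0.20, -0.09 and 0.06, and not every library correlated best with its own number.

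Bst2 changed direction, to log2 fold changes of -0.33 with the GC content offset, -0.30 in voom, -0.13 without control replicate 3 and -0.24 without luteolin replicate 2, where leaving out 1 library gave -0.24 to 0.15. Ifi35, Samd9l and Ifi27l2a also changed direction in at least 1 alternative, as given beside their values, and no other tested member did. Of the 240 values of the 16 members given per library, 199 kept direction and side of an adjusted p of 0.05. Another 25 newly passed it and 12 no longer did. Only Zbp1 and Oasl2 passed it in the main fit, so only these 2 could be lost. Most of the 199 passed in neither fit. Without control replicate 1, 2 or 3 or luteolin replicate 1, 0% of all tested genes were higher at this threshold. In those settings the side was fixed for every member, so this tally is not a measure of stability. A count of 0 limits only what depth could show, as for the type I ligands, and the origin of the libraries from separate animals is not stated.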
